A study of Homo sapiens with 6 samples.

Results

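Myosin II heavy chains are the long motor subunits of the myosin that pulls on actin filaments. The genes described here are MYH15, MYH3, MYH6, MYH7, MYH7B, MYH9, MYH10, MYH11 and MYH14, taken by their symbols from a table of 58051 genes, in which all 9 were found. The cells were HEK293T, an established line of human embryonic kidney origin with the SV40 T antigen, harvested 48 hours after transient transfection. The empty vector group received pcDNA3.1- and the ppk1 group received pcDNA3.1-ppk1, which expresses a bacterial enzyme that makes chains of polyphosphate. There were 3 libraries of each kind, and the series text matches them as biological replicates by letter (B, C and D). Both groups are the same single cell line, and the share of cells that took up a plasmid, the amount of plasmid in each library and its transfection reagent are not given in the sources used here. The protocol also names an HA-tagged ppk1 plasmid, but the label of each ppk1 sample names the untagged one. The set was chosen by a measured value: MYH15 was selected on its higher level with ppk1 in these same libraries, and its relatives joined by name. Its difference between the groups is therefore given as a description, and so are the differences of the other 8. Where calls of a fit across all genes are counted among them, nothing is read from the count.

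Each heavy chain has a head that binds actin and splits ATP, a neck that carries an essential and a regulatory light chain, and a long coiled tail through which molecules pair and build filaments. In nonmuscle cells the filaments tighten the actin cortex, close the cleavage furrow in cell division and pull on adhesions, and they are switched on by phosphorylation of the regulatory light chain. Striated muscle uses other heavy chain genes, which are silent or low in most other cells and are regulated through troponin on the thin filament.

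The heavy chain genes have a common build. In GENCODE release 29 their longest transcripts run from 5941 bases (MYH6) to 7762 bases (MYH10) and hold between 39 and 43 exons. They lie on chromosomes 3 (MYH15), 14 (MYH6 and MYH7), 16 (MYH11), 17 (MYH3 and MYH10), 19 (MYH14), 20 (MYH7B) and 22 (MYH9). MYH15 (ENSG00000144821) overlaps no annotated gene, and 0% of its transcript sequence, read in stretches of 50 bases, occurs in another gene. MYH6 and MYH7 share 14.0% and 14.5% with other genes, chiefly each other, and MYH3 shares 4.55% with its relatives. MYH11 lies opposite NDE1, and MYH10 lies opposite NDEL1. Whether the counting used the strand is not given in the sources used here, so the low counts of MYH11, and of MYH7B, which lies opposite TRPC4AP, are uncertain.

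RefSeq's promoter table held 5 of the 9 genes (MYH15, MYH6, MYH9, MYH10 and MYH14). The 250 bases before the RefSeq start are shown for the gene whose level differed most between the groups and for the pair with the highest levels. They are printed 5′ to 3′ on the minus strand of GRCh38.p14, at chr3:108510597-108510846 for MYH15, chr22:36387968-36388217 for MYH9 and chr17:8630726-8630975 for MYH10. Capitals mark TATAAA and the GC box GGGCGG, on either strand.
MYH15: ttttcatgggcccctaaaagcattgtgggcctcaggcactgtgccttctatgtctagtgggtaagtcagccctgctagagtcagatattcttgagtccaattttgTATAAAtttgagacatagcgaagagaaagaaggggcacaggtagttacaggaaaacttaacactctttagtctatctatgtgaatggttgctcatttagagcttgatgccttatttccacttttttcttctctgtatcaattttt
MYH9: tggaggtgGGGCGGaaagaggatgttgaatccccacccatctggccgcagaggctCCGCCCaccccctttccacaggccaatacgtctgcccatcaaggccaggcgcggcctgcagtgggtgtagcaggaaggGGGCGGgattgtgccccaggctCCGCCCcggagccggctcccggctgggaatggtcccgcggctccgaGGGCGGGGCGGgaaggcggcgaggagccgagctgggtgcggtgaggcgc
MYH10: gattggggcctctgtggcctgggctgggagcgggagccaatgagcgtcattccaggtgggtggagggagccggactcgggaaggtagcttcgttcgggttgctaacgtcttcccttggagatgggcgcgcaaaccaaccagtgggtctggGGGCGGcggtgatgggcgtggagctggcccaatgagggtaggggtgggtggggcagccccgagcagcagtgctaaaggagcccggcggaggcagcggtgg
The MYH15 stretch had 40.0% G and C and 1 CpG, against 71.6% and 21 in MYH9 and 67.2% and 16 in MYH10. Medians over 35116 promoters of this length were 58.0% and 11. The MYH15 stretch held 1 TATAAA, which begins 145 bases before the start, and 0 GC boxes. The MYH6 stretch, not printed, also held 1 TATAAA, 30 bases before its start. The MYH9 stretch held 6 GC boxes, 2 of which overlap, and the MYH10 stretch held 1. TATAAA was found in 10.7% and the GC box in 42.6% of all these promoters. The EGR site GCGNGGGCG (8.41% of promoters) and the CArG box, which the serum response factor binds (1.16%), had 0 matches in MYH15, MYH9, MYH10, MYH14 and MYH6. The E-box CANNTG (61.8% of promoters) matched 1 time in MYH9 and in MYH10 and 0 times in MYH15. These matches describe letters, not sites in use. The RefSeq start of MYH15 lies 18.7 kb inside the gene as GENCODE draws it, so the start used in these cells is unknown. The 2 annotations also differ by 15.4 kb for MYH14, but by only 100 bases for MYH9 and 36 for MYH10.

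Library totals ran from 40851783 to 67122986 counts, with more counts in ppk1 than in empty vector for every pair. Of 8 markers expected in this kidney line, all 8 had more than 3 counts in every library. Of 9 skeletal muscle markers 4 did, with MYF5 and MYF6 at 0 counts in all libraries. The summed level of those 9 was 2.19 to 2.37 CPM with the empty vector and 2.53 to 2.97 CPM with ppk1. The higher sum was not shared by all of them. The largest gain was in ACTA1, whose group means were 0.787 and 1.23 CPM. DES (0.214 and 0.322 CPM) and TTN (0 and 0.0359 CPM) were also higher with ppk1. The means of MYOD1 (1.05 and 0.955 CPM), CKM (0.175 and 0.131 CPM) and TNNT3 (0.0597 and 0.0249 CPM) were lower. MYOG had at most 1 count in any library. CPM is a count scaled to a common library total, corrected for composition by TMM. Of 7 cardiac markers 2 had over 3 counts throughout, and their sum was 36.9 to 46.0 and 45.9 to 47.8 CPM, nearly all of it from NKX2-5 and TNNI3. The 6 smooth muscle markers were all detected, with sums of 49.7 to 63.4 and 43.7 to 47.4 CPM. The part of these shifts in the values below was not tested. In bulk RNA, a change in the number of cells of a type and a change in RNA per cell cannot be told apart.

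MYH15 is an old branch of the striated muscle heavy chains, known from extraocular muscle. With the empty vector, in B, C and D, MYH15 had 113, 90 and 89 counts, or 2.14, 2.03 and 2.18 CPM. In the ppk1 libraries it had 233, 220 and 180 counts, or 3.49, 4.59 and 4.31 CPM. All 3 ppk1 libraries lay above all 3 empty vector libraries, ppk1 B was the lowest of the ppk1 group, and the empty vector values lay close together. MYH15 was chosen for this gap, so its counting intervals describe the libraries and do not test the difference. The highest upper limit in the empty vector group was 2.68 CPM and the lowest lower limit in the ppk1 group was 3.06 CPM (95% exact binomial intervals, which cover counting error only). Group means were 2.12 ± 0.0764 and 4.13 ± 0.572 CPM (SD, n = 3 libraries each). The fitted log2 fold change was 0.95 (SE 0.14), or 1.93-fold, and the log2 difference within pairs was 0.69 in B, 1.16 in C and 0.97 in D.

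**Figure D1:**
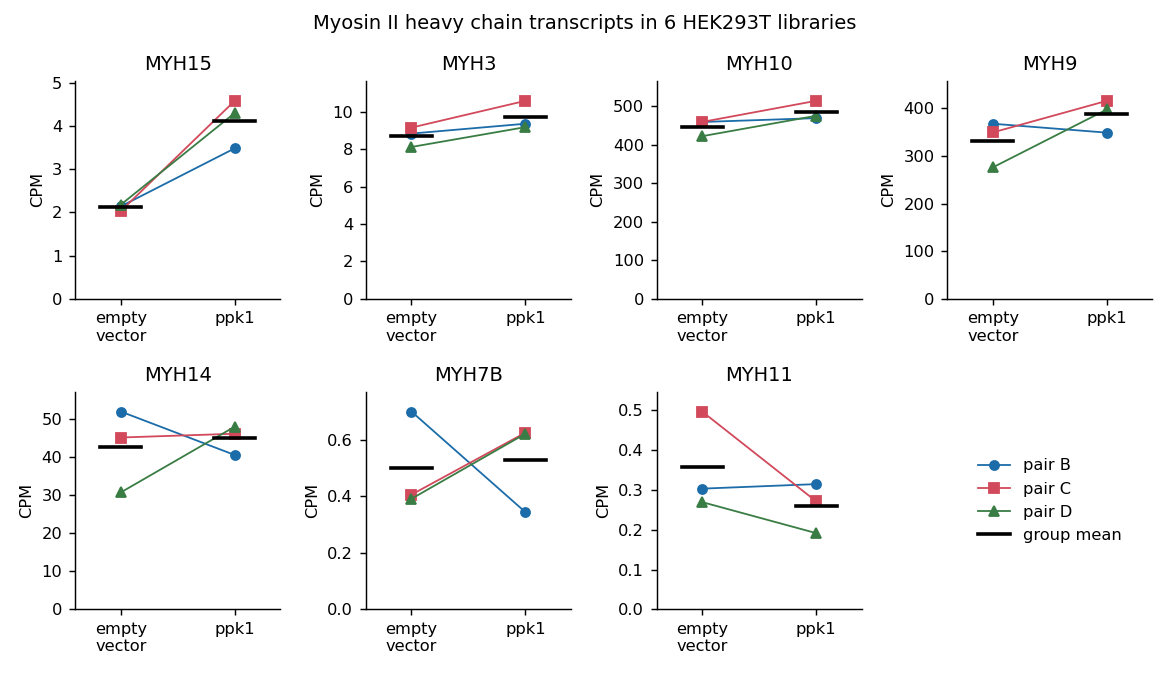
CPM of 7 myosin II heavy chain genes in each library, with a linear axis from 0, lines that join the 2 libraries of a pair and a black bar at each group mean (n = 3). MYH15 stands between 2.03 and 2.18 CPM with the empty vector and between 3.49 and 4.59 CPM with ppk1, while pair B runs the other way from pairs C and D for MYH9, MYH14, MYH7B and MYH11 (MYH14 differs by only 0.03 in pair C, on the log2 scale).

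MYH3 (ENSG00000109063) encodes the heavy chain of embryonic skeletal muscle. MYH3 stood at 8.84, 9.16 and 8.13 CPM in the empty vector libraries B, C and D and at 9.37, 10.6 and 9.19 CPM in the ppk1 libraries. Every ppk1 value was above every empty vector value, but the gap between the nearest of them (9.16 and 9.19 CPM) was smaller than the spread within either group. The fitted log2 fold change of MYH3 was 0.16 (SE 0.10). MYH3 lies on chromosome 17 in a cluster with MYH1, MYH2, MYH4, MYH8 and MYH13, the heavy chain genes of adult, perinatal and extraocular skeletal muscle. Each of these 5, and MYH16 on chromosome 7, had at most 3 counts in any library, against 332 to 626 counts for MYH3. Within the cluster, then, MYH3 alone was measured above that level.

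MYH7B (ENSG00000078814), a slow-muscle relative, had 37, 18 and 16 counts in the empty vector libraries B, C and D and 23, 30 and 26 with ppk1. The levels were 0.701, 0.406 and 0.392 CPM and then 0.344, 0.626 and 0.622 CPM, so the groups overlapped and pair B ran against C and D. The fitted log2 fold change of 0.01 (SE 0.31) joins pair differences of -0.95, 0.58 and 0.62. MYH11 (ENSG00000133392), the smooth muscle heavy chain, had 16, 22 and 11 counts with the empty vector and 21, 13 and 8 with ppk1. Its levels overlapped as well (0.303, 0.497 and 0.269 CPM against 0.314, 0.271 and 0.191 CPM), and its fitted log2 fold change was -0.41 (SE 0.35), with -0.72 without replicate B and -0.15 without replicate C. The levels of these genes rest on few reads.

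MYH6 (ENSG00000197616) and MYH7 (ENSG00000092054) encode the alpha and beta heavy chains of the heart, and MYH7 also serves slow skeletal fibres. MYH6 had 3, 4 and 0 counts in the empty vector libraries and 3, 0 and 0 with ppk1, and MYH7 had 0, 1 and 0 against 1, 0 and 0. In the libraries at 0, a limit of 3 counts is 0.0589 to 0.0734 CPM of the unscaled totals, and the two-sided 95% exact binomial interval of the scaled CPM ends at 0.0724 to 0.0903, so no difference was detectable at this depth and neither gene entered the fit. MYH6, MYH7 and MYH7B each host a microRNA of heart and slow muscle in an intron, and their mature sequences from RefSeq (GRCh38.p14) show how close they are, with the seed, bases 2 to 8, in capitals.
miR-208a-3p (MYH6): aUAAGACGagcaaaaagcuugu
miR-208b-3p (MYH7): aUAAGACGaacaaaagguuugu
miR-499a-5p (MYH7B): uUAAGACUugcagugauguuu
The MYH6 and MYH7 microRNAs have the same seed, and that of MYH7B matches it at 6 of 7 bases. Their precursor genes had 0 counts in all 6 libraries, which were made by poly(A) selection and do not measure mature microRNAs.

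MYH9 (ENSG00000100345), MYH10 (ENSG00000133026) and MYH14 (ENSG00000105357) encode the nonmuscle heavy chains IIA, IIB and IIC. MYH10 stood at 459, 459 and 422 CPM in the empty vector libraries B, C and D and at 469, 514 and 475 CPM in the ppk1 group. Its groups did not overlap, yet the fitted log2 fold change was only 0.12 (SE 0.07), with pair differences of 0.03, 0.16 and 0.17 and a value of 0.08 without pair D. MYH9, the form of cell migration and cortical tension, stood at 368, 350 and 276 CPM with the empty vector and at 349, 416 and 398 CPM with ppk1. The empty vector D library was the low one, and the groups overlapped. The log2 fold change of MYH9 was 0.23 (SE 0.08), and its pairs differed by -0.08 in B, 0.25 in C and 0.53 in D. Without pair D the value was 0.07, so it rested largely on that pair. MYH14 stood at 52.0, 45.2 and 30.7 CPM and then at 40.6, 46.2 and 48.0 CPM, with the empty vector B and D libraries as the extremes. Its pairs went from -0.36 in B through 0.03 in C to 0.64 in D around a fitted log2 fold change of 0.10 (SE 0.10). That SE draws on the spread of other genes, and for MYH14 it was 0.29 in DESeq2 and 0.23 with robust dispersion. Without pair D the value for MYH14 was -0.19.

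**Figure D2:**
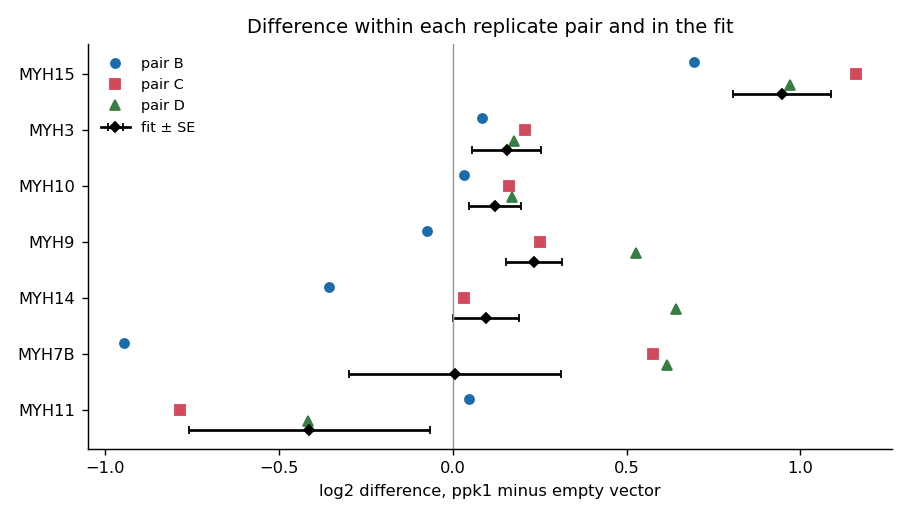
Log2 difference, ppk1 minus empty vector, for 7 heavy chain genes: coloured symbols are the 3 replicate pairs and black diamonds the fitted value with its standard error. MYH15 is the gene whose pairs all lie above 0.6 (0.69, 1.16 and 0.97), while the pairs of MYH9, MYH14, MYH7B and MYH11 fall on both sides of 0.

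Of the 9 heavy chain genes, 7 had enough counts for the fit across 19574 genes, and 1 of these, MYH15, was called (adjusted p below 0.05). Over all genes 9.08% were called (4.04% higher and 5.04% lower with ppk1), and 2.40% without the replicate letter in the model. Since the set was chosen by this contrast, that count has no weight as a test. It also moved with the setting. MYH9 was called too with no filter on low counts, a fit in which 1731 genes were called. Without replicate B, MYH9 and MYH14 were called as well, as were 12.5% of all genes tested in that fit. All ppk1 libraries lay above all empty vector libraries for MYH15, MYH3 and MYH10, a pattern that 13.0% of the tested genes showed (25.6% in either direction). The same 3 of the 7 were higher in all 3 pairs, against 22.6% of tested genes, and none was lower in all 3, while 43.8% of tested genes moved in 1 direction in all pairs.

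The levels of the heavy chains in these cells can be set side by side per length, as CPM per kilobase of the longest annotated transcript, pooled over the groups. Over all 6 libraries the order was MYH10 (60.1 ± 3.83), MYH9 (47.6 ± 6.46), MYH14 (6.34 ± 1.07), MYH3 (1.53 ± 0.134), MYH15 (0.441 ± 0.164), MYH7B (0.0819 ± 0.0240) and MYH11 (0.0447 ± 0.0148 CPM per kilobase, mean ± SD, n = 6). MYH6 and MYH7 followed at or near the limit of detection. MYH10 exceeded MYH9 in 6 of 6 libraries, by 1.27-fold on average, although their ranges overlapped. MYH9 exceeded MYH14 by 7.54-fold, MYH14 exceeded MYH3 by 4.11-fold, MYH3 exceeded MYH15 by 3.65-fold and MYH15 exceeded MYH7B by 5.28-fold, each in 6 of 6 libraries and with no overlap of ranges. The steps around MYH15 depend on the group: in the empty vector libraries alone MYH3 lay 2.27 above MYH15, and MYH15 lay 1.97 above MYH7B, on the log2 scale (1.87 and 2.40 over all 6 libraries). MYH7B lay above MYH11 by 1.84-fold, in 5 of 6 libraries, with ranges that overlapped. Libraries of a letter are matched, so the order rests on 3 independent units. With these, each of the 6 steps had p = 0.25 in a two-sided exact test by sign flips, the smallest value it allows, so the design cannot place any step past 0.05. With the 6 libraries taken as independent, the exact sign-flip p was 0.0312 for each of the first 5 steps (0.0375 adjusted over the 6) and 0.0625 for MYH7B against MYH11. The matching by letter goes against that assumption. The order was also ranked on these same libraries, and the steps around MYH15 include the ppk1 values by which it was chosen. These p-values therefore lend the order no support. The rank of MYH15 was the same in both groups, with 0.299 ± 0.0108 CPM per kilobase for the empty vector and 0.584 ± 0.0809 for ppk1 (SD, n = 3).

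**Figure D3:**
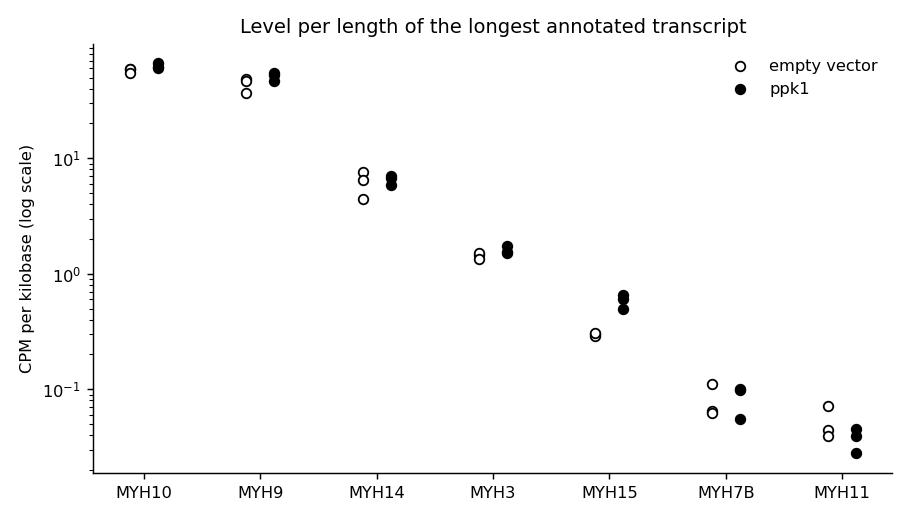
CPM per kilobase on a log axis for 7 heavy chain genes, with 1 point per library (open, empty vector; filled, ppk1). MYH10 and MYH9 lie near 60.1 and 47.6, MYH3 near 1.53, and MYH15 moves from 0.299 to 0.584 without reaching MYH3; MYH6 and MYH7, with counts of 0, are not drawn.

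The nonmuscle forms made up nearly all of the heavy chain transcripts. On the per-length scale MYH9, MYH10 and MYH14 together held 98.3 ± 0.0800% of the 9-gene total with the empty vector and 98.1 ± 0.0575% with ppk1 (SD, n = 3). Within the nonmuscle pool, MYH10 held 51.2 to 57.0% with the empty vector and 50.6 to 53.7% with ppk1, MYH9 held 38.3 to 42.2% and 41.1 to 43.6%, and MYH14 held 4.67 to 6.53% and 5.23 to 5.76%. These ranges overlapped, and the most MYH10-rich mixture was that of the empty vector D library. MYH15 held 0.258, 0.252 and 0.317% of the 9-gene total in the empty vector libraries B, C and D and 0.430, 0.497 and 0.495% with ppk1. Set against MYH3, its level per length was 20.6, 18.9 and 22.9% of it and then 31.8, 37.0 and 40.0%. These shares restate the difference by which MYH15 was chosen.

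The tested genes next to MYH15 on chromosome 3 had log2 fold changes below 0. The 3 protein-coding neighbours on either side are HHLA2, IFT57 and CD47 towards lower coordinates and CIP2A, DZIP3 and RETNLB towards higher ones. HHLA2, 2.1 kb from the end of MYH15, had 1 count in 1 library, and RETNLB had 0 in all. CIP2A, an inhibitor of the phosphatase PP2A, is 20.5 kb away, stood at 107, 126 and 149 CPM and then 108, 108 and 115 CPM, and had a log2 fold change of -0.19 (SE 0.08). DZIP3 (-0.20, SE 0.07), IFT57 (-0.13, SE 0.08) and CD47 (-0.08, SE 0.08, as log2 fold changes) also had negative values. Of the 4 neighbours tested, 0 passed an adjusted p of 0.05 in edgeR's test and 0 in DESeq2, and 2 (CIP2A and DZIP3) had an unadjusted edgeR p below 0.05, as did 23.8% of all tested genes. Without replicate B these 2 were called, as were 12.5% of all genes tested in that fit.

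Among 15094 other genes that averaged 50 counts or more, SNX9 followed MYH15 most closely across the 6 libraries (Pearson r = 0.996 of log2 CPM). SNX9 encodes a sorting nexin of endocytosis. The long noncoding RNA RP11-348P10.2 (0.994), the pseudogene MBL1P (0.991), STX5 (0.989), a syntaxin of the Golgi, and ATF4 (0.988), a transcription factor of the stress response, came next. The libraries fall into 2 groups that differ in MYH15, so such values arise for any gene that differs evenly between them, and they carry no p. The log2 fold changes of these genes were much smaller than that of MYH15, at 0.17 (SE 0.07) for SNX9, 0.30 (SE 0.14) for RP11-348P10.2, 0.26 (SE 0.14) for MBL1P, 0.10 (SE 0.07) for STX5 and 0.25 (SE 0.08) for ATF4. Only ATF4 was called among them (edgeR adjusted p 0.0311, 0.0897 without the block), and SNX9, RP11-348P10.2, MBL1P and STX5 were not.

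The genes that work with the heavy chains were taken from 7 lists of 121 genes, of which 83 had enough counts to be tested. In edgeR's quasi-likelihood test 11 of them passed an adjusted p of 0.05, 7 higher and 4 lower, or 13.3% against 9.08% of all genes. The lists were chosen with earlier results of these data known, so nothing is read from the difference between these shares. The figures without the replicate block (5 called) and without replicate C (2 called, MYO1H and ACTA2) were lower. Calls over all genes fell in the same fits, from 1777 to 470 and to 406.

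Light chains bind the neck of each heavy chain. Of the 4 nonmuscle and smooth muscle light chain genes tested, 1 rose, and the list median was 0.11 against 0.01 over all genes, as log2 fold changes. MYL6, the essential light chain that pairs with the nonmuscle heavy chains, stood at 153, 165 and 212 CPM in the empty vector libraries B, C and D and at 207.8, 224 and 239 CPM with ppk1. It rose by 0.35 on the log2 scale (SE 0.07, adjusted p 0.00107 in edgeR), although the empty vector D library lay above ppk1 B. MYL6 overlaps MYL6B on the same strand and lost its call without the block (adjusted p 0.118). The regulatory chain MYL12B had a log2 fold change of 0.05 (SE 0.08) and was not called. MYL9, its smooth muscle relative, had at most 1 count in any library. Of 8 striated light chain genes only MYL5 was tested, with a log2 fold change of -0.07 (SE 0.09).

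Kinases, phosphatase subunits and their regulators set how much of the regulatory light chain is phosphorylated. Of 25 such genes, all tested, 1 rose and 2 fell, around a median log2 fold change of 0.00. PPP1R12B, a targeting subunit of myosin phosphatase, stood at 59.8, 59.3 and 54.3 CPM with the empty vector and at 46.1, 42.9 and 43.0 CPM with ppk1. It fell by 0.39 on the log2 scale (SE 0.08, edgeR adjusted p 0.000274), was lower in 3 of 3 pairs and was also called without the block (0.0149). PPP1R14B, which encodes an inhibitor of that phosphatase, rose by 0.29 on the log2 scale (SE 0.07, edgeR adjusted p 0.00662, 0.0532 without the block), and shares 13.1% of its sequence with other genes. STK17A, a kinase of the death-associated family, fell by 0.27 on the log2 scale (SE 0.08, edgeR adjusted p 0.0288, 0.0866 without the block). The STK17A call was lost in 4 of 10 alternatives, among them DESeq2. RHOA, the most abundant gene of this list that was not called, had a log2 fold change of 0.13 (SE 0.08).

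Heavy chains need chaperones to fold and partners to build filaments. Of 12 partners tested out of 19, 2 rose, with a list median of 0.14 on the log2 scale. UNC45A, the chaperone of the nonmuscle myosin head, stood at 119, 117 and 101 CPM and then at 124, 140 and 131 CPM. Its log2 fold change was 0.23 (SE 0.08, edgeR adjusted p 0.0439, 0.163 without the block). The call was lost in 8 of 10 alternatives, among them DESeq2 (adjusted p 0.0889), and without replicate D the log2 fold change was 0.14. HSP90AA1, the heat shock protein with which UNC45 proteins act, rose by 0.28 on the log2 scale (SE 0.08, adjusted p 0.0206 in edgeR and 0.199 without the block), although its groups overlapped, and HSP90AB1 had 0.22 (SE 0.08) and was not called. HSP90AA1 shares 11.3% of its sequence with other genes.

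The unconventional myosins carry cargo or link membranes to actin and build no filaments. Of 20 tested out of 24, 1 rose and 1 fell, with a median log2 fold change of 0.05. MYO1H, a class I myosin, had 33, 41 and 42 counts in B, C and D with the empty vector and 12, 3 and 9 with ppk1, or 0.625, 0.925 and 1.03 CPM against 0.180, 0.0626 and 0.215 CPM. It fell by 2.42 on the log2 scale (SE 0.33, edgeR adjusted p 8.2e-07, 0.00364 without the block) and overlaps KCTD10 on the opposite strand. Its relative MYO1E rose by 0.26 (SE 0.08, edgeR adjusted p 0.0218, 0.0884 without the block, as a log2 fold change). The MYO1E call was lost in 5 of 10 alternatives, among them DESeq2. MYO1C, the most abundant of those not called, had 0.07 (SE 0.07).

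The thin filament is the track of these motors. Of 21 thin filament, sarcomere and muscle regulator genes tested out of 34, 2 rose and 1 fell, with a median log2 fold change of 0.16. ACTB stood at 826, 868 and 762 CPM with the empty vector and at 1010, 1330 and 1021 CPM with ppk1. ACTB and ACTG1, the cytoplasmic actins, rose by log2 fold changes of 0.44 (SE 0.08, edgeR adjusted p 9.0e-05) and 0.39 (SE 0.08, adjusted p 0.000883). Without replicate C, where calls over all genes fell from 1777 to 406, they had log2 fold changes of 0.36 and 0.33 and edgeR adjusted p of 0.0511 and 0.0788. ACTA2, the actin of smooth muscle, stood at 18.7, 16.1 and 14.2 CPM with the empty vector and at 11.1, 9.14 and 7.63 CPM with ppk1. It fell by 0.82 (SE 0.09, edgeR adjusted p 5.7e-09, on the log2 scale), and it overlaps FAS on the opposite strand. TPM3, a tropomyosin, had a log2 fold change of 0.19 (SE 0.07) and was not called. The muscle regulators MYF5 and MYF6 had 0 counts, and MYOD1, at 0.75 to 1.14 CPM, had a log2 fold change of -0.14 (SE 0.21).

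**Figure D4:**
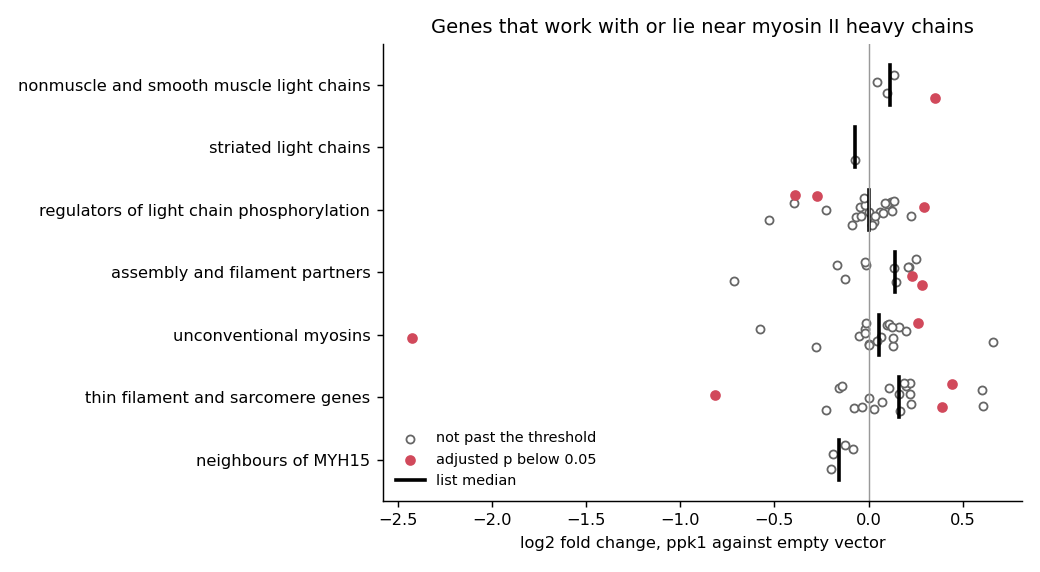
Log2 fold change of each tested gene in 6 of the lists and among the neighbours of MYH15 (red, edgeR adjusted p below 0.05; black bar, list median). The point far to the left is MYO1H at -2.42, the red points to the right of the thin filament row are ACTB and ACTG1, and all 4 neighbours of MYH15 lie below 0; the other striated heavy chains had no gene with enough counts.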

How the data were processed

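Poly(A)-selected, directional libraries were sequenced from 6 samples. The authors deposited 1 table of counts per Ensembl gene, as whole numbers whose totals differ between libraries. Per the submitters' processing notes the tools named were bcl2fastq 2.20, Trimmomatic, STAR, HTSeq, edgeR, DESeq, Cufflinks and Cuffdiff. Their roles and settings, the genome build and the annotation are not given in the sources used here. All columns matched a sample, and 0 library pairs were identical.

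Counts were filtered with filterByExpr (minimum count 10), scaled by TMM and tested with edgeR 4.0.16 (glmQLFit, glmQLFTest, R 4.3.3), the replicate letter as a block, with Benjamini-Hochberg adjustment over 19574 genes. The pairing is from the series text. Same-letter libraries deviated from their group means with correlations of 0.109 (B), 0.135 (C) and 0.0476 (D) over all tested genes, and 0.239, 0.399 and 0.247 over 12245 genes with at least 200 counts. Log2 CPM used a prior count of 2. P-values and SEs of the edgeR fit rest on the spread between biological replicates, borrowed largely from other genes (47.5 prior degrees of freedom). In a gene whose pairs disagree, such as MYH14, the SE can thus be smaller than its own pairs imply. Lengths, overlaps and shared stretches come from GENCODE release 29, which held 57447 of the identifiers. The test recovered 99% of simulated 2-fold and 90% of 1.5-fold changes for this comparison, with 19348 genes run and 7 false calls. Changes were simulated only in genes that averaged 50 counts or more, and with no effect of the replicate letter. The recovery therefore does not cover genes with fewer counts, such as MYH7B, MYH11 and MYO1H. Simulated counts used the spread that the fit had estimated for each gene, partly borrowed from other genes. The recovery and the false calls may thus not hold for a gene whose pairs disagree, such as MYH14. Alternatives were RLE and upper-quartile scaling, other filters, no block, DESeq2 1.42.0, robust dispersion and omission of each pair.

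The members and lists were chosen with earlier results of these data known. Named were all 9 members. From each list came up to 4 called genes with the smallest adjusted p and the most abundant gene not called. The rule adds the 5 genes most correlated with MYH15 and its 6 neighbours. MYL9, MYOD1, MYF5 and MYF6 were added after their values were seen.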

Additional observations from a re-analysis of the deposited data

How the results depend on the processing

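MYH15 stayed between 0.84 (without replicate C) and 1.08 (without replicate B) as a log2 fold change under 10 alternatives, and MYH9 between 0.07 (without replicate D) and 0.39 (without replicate B). The log2 fold changes of MYH14 and MYH7B changed sign when a pair was left out, from -0.19 to 0.33 and from -0.29 to 0.64. With no replicate block the calls fell from 1777 to 470 genes (89 higher and 381 lower), and from 11 to 5 among the list genes. DESeq2 called 755 (324 higher, 431 lower) and upper-quartile scaling 422 higher. Across the fits that left out 1 pair there were 406 to 2435 calls, of which 82 to 1263 were higher and 324 to 1172 lower, and 2 to 16 calls in the lists. Of 109 values of the 11 called list genes, 82 kept direction and call, 27 lost the call, 9 of them without replicate C, and 0 changed direction. With the union of all exons as length, the levels per kilobase were 51.7 (MYH10), 39.9 (MYH9), 4.21 (MYH14), 1.38 (MYH3) and 0.0191 (MYH11). The log2 steps were then 3.25 (MYH9 over MYH14), 1.60 (MYH14 over MYH3) and 1.77 (MYH7B over MYH11), because MYH14 and MYH11 have much annotated exon sequence outside the longest transcript. The order of the genes was the same. The test of the steps over replicate letters was added after the data were seen. Except for that length effect, the cause was not tested. Depth limits MYH7B, with 16 to 37 counts a library, MYH11, with 8 to 22, and MYH6 and MYH7, at or near 0.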
